A study of Mus musculus with 9 samples.

Results

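A set of 9 genes of steroid hormone metabolism was followed in rat liver, led by Hsd17b2. They were taken by gene symbol from a count table of 19686 genes, and all 9 were found once. Hsd17b2 was chosen by its mean level in these same libraries, which stood higher in the model group than in controls and higher again in the extract group, so its values are a description with no test. The other 8, Hsd17b4, Hsd17b6, Hsd17b8, Hsd17b10, Hsd17b11, Hsd17b12, Hsd11b1 and Srd5a1, were added as related enzymes.

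RNA was sequenced from the livers of 9 male Wistar rats, 3 in each of 3 groups. The control group drank purified water and received saline by gavage. The model group drank 15% fructose and received saline, and the HME group drank 15% fructose and received the 50% methanol extract of Danggui-Shaoyao-San (DSS), a herbal formula of Chinese medicine, at 1.8 g/kg. Treatment ran for 8 weeks, and all rats fasted for 12 h before death. The labels call the extract group DSS, and HME is the only extract that the methods take to transcriptomics. The age of the rats is not given in the sources used here. The sample records name the mouse as organism, although strain and Ensembl identifiers both belong to the rat. Nothing in the sources says that rats were pooled, and p-values measure the spread between these rats.

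Enzymes of the hydroxysteroid dehydrogenase families switch a steroid between a hydroxyl and a keto form, and so between forms that bind their receptor strongly and weakly. The liver is a main site of this conversion and of the later coupling of steroids to sulfate or glucuronic acid. The 9 genes do not all inactivate hormones. Hsd17b2 oxidises estradiol and testosterone to weaker forms, while Hsd11b1 restores active glucocorticoid, Srd5a1 makes dihydrotestosterone, and several other members act mainly on fatty acids.

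Total counts ranged from 14345819 to 26837227 per library, and every member had between 370 and 21578 counts in a library, so that counting error was at most 5.2% of a value. Levels are given as CPM, the count scaled to the TMM-normalized size of the library, which makes libraries comparable for one gene but does not compare one gene with another. Model replicate 1, the deepest library, stood apart on the second principal component, at -51.8 where the other 8 libraries lay between -12.7 and 18.3. The hepatocyte markers, among them albumin, summed to between 116000 and 184000 CPM in every library. Summed markers of other cells reached at most 34 CPM for bile duct, 354 for stellate cells, 28 for pancreas and 1190 for red blood cells. In bulk tissue, fewer cells of a type and less RNA per cell cannot be told apart.

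Hsd17b2 (ENSRNOG00000013982) encodes the enzyme that turns estradiol into estrone and testosterone into androstenedione. In the control rats it was at 109, 90.4 and 94.5 CPM. In the model rats it was at 109, 422 and 175 CPM. In the HME rats it was at 758, 559 and 507 CPM. The 3 HME rats were above every other rat, and the model and control ranges overlapped, since model replicate 1 was at the control level. The group means were 97.9 ± 9.75, 235 ± 165 and 608 ± 133 CPM (SD, n = 3 rats each), so that the mean of the HME group was 6.21 times that of the control group and 2.59 times that of the model group.

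**Figure D1:**
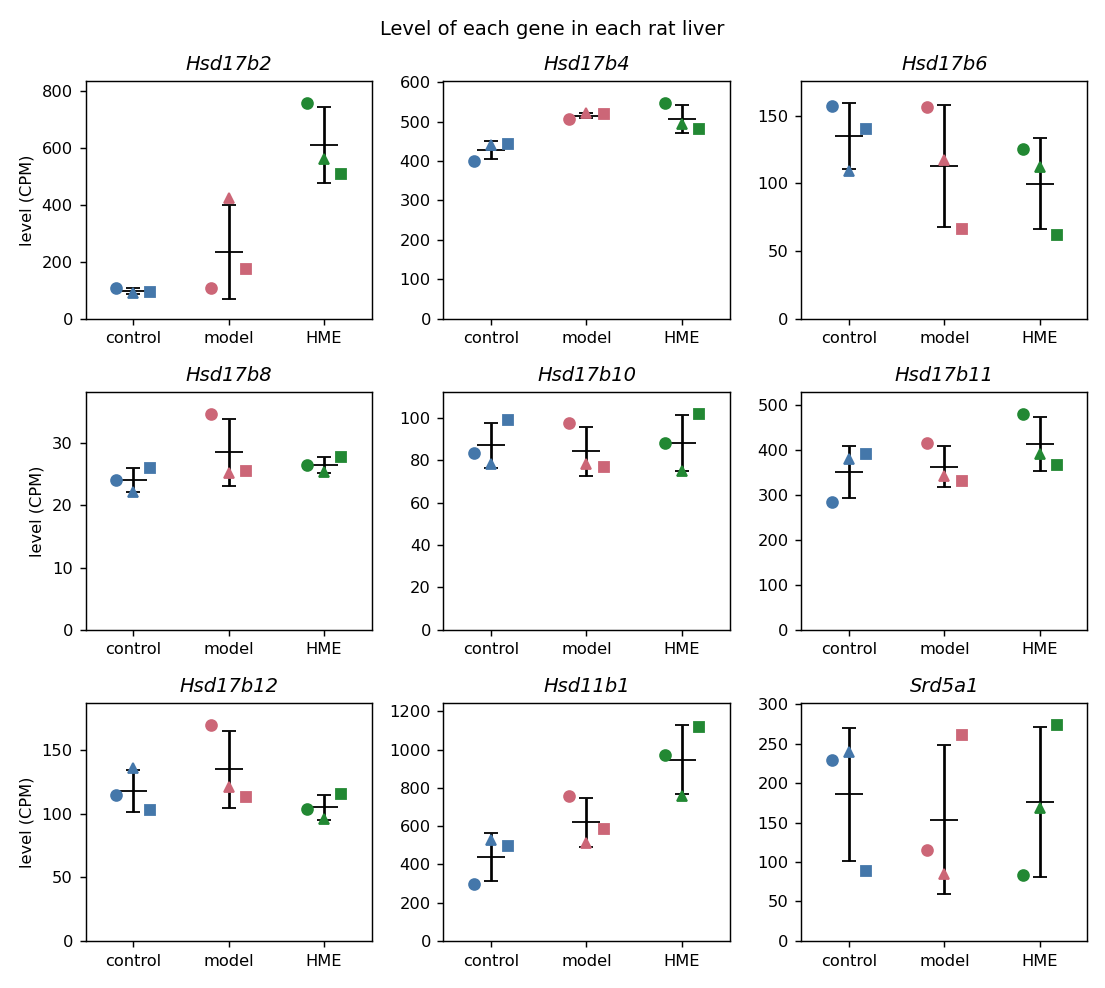
Level of each of the 9 genes in CPM (linear axis from 0) in each rat, by group. Circles, triangles and squares are replicates 1, 2 and 3, and the bars give the mean ± SD of 3 rats. Hsd17b2 lay between 507 and 758 CPM in the HME rats and between 90.4 and 422 CPM in all others, while Srd5a1 spread widely within each group.

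The difference between the model and control groups depended most on model replicate 2. The fitted log2 fold change of Hsd17b2 between the model and control groups was 1.25 (standard error 0.432). It was 0.53 without model replicate 2 and 1.59 without model replicate 1. For HME against model rats it was 1.38 (standard error 0.449), and it was 2.10 without model replicate 2 and 1.04 without model replicate 1. For HME against control rats, where no model rat enters, it was 2.63 and stayed between 2.44 and 2.76 with each rat left out. Its standard error was 0.172 in this fit and 0.43 with all 9 libraries in one fit. By the size of this log2 fold change Hsd17b2 stood at rank 17 among the rises of 12633 genes, a position that the choice of the gene already implies. As a share of the summed CPM of the 9 genes, Hsd17b2 took 4.47% to 6.41% in the control rats, 4.6% to 19.0% in the model rats and 16.6% to 23.8% in the HME rats. Since CPM does not compare genes, the share compares rats only, and it restates the levels by which Hsd17b2 was chosen.

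The spread of Hsd17b2 within groups was uneven. The coefficient of variation was 9.95% among controls and 21.8% among HME rats, where the medians over 12897 genes were 13.1% and 13.8%. In the model group it was 70.2%, and 96.4% of the genes had a smaller one. In model replicate 2, the rat with the highest Hsd17b2 of its group, the sum of the endothelial markers was 258 CPM against 106 and 92.6 CPM in the other model rats, and that of the markers of leukocytes and Kupffer cells was 280 against 207 and 122 CPM. In the HME rats, where Hsd17b2 was higher still, these sums were 141 to 191 and 186 to 254 CPM, within the ranges of the control rats (138 to 225 and 173 to 427 CPM). The stellate markers summed to 294 CPM in model replicate 2, against 188 and 207 CPM in the other model rats. Their sum was 240 to 354 CPM in the HME rats, which reached above the control range of 257 to 291 CPM. Intestine is another site of Hsd17b2, and the 3 intestinal markers in the table summed to at most 1.32 CPM in any library. The summed markers of pericentral hepatocytes, the cells around the central vein, were lowest in the model rats. The sum was 2460 to 2810 CPM in the control rats, 1860 to 2120 CPM in the model rats and 2670 to 3740 CPM in the HME rats. Most of it was Cyp2e1, with a median of 1810 CPM over all libraries, and Glul came next with 430 CPM. For HME against model rats the log2 fold change was 1.06 for Cyp2e1 and -0.52 for Glul (FDR 0.0738 and 0.449 from edgeR). The sum thus follows mainly Cyp2e1, and Glul went the other way. The remaining markers of the list were not compared singly. The summed markers of periportal hepatocytes ran from 2390 to 5630 CPM with overlap of all groups. The part of these cells in the level of Hsd17b2 was not tested.

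In the comparison of the model with the control group, none of the other 8 genes passed in edgeR, where 0.0801% of 12486 genes did. Passing, throughout, takes a log2 fold change beyond 0.5 in size together with a false discovery rate (FDR) no higher than 0.01. The number with an unadjusted p under 0.05 was 0, where 13.2% of all genes had one. DESeq2 also called 0, where it called 2.05% of all genes. At an FDR of 0.05 again 0 passed, where 0.601% of all genes did. Their fitted log2 fold changes lay between -0.27 and 0.50, 5 of them positive, with a median of 0.12, against a median of -0.0011 over all genes tested. Their median absolute value was 0.25 against 0.22 over all genes. The lowest FDR was 0.432, for Hsd17b4.

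For HME against model rats, again 0 of the 8 passed in edgeR and 0 in DESeq2, where 0.136% of 12502 genes passed in edgeR and 1.18% in DESeq2. The log2 fold changes ran from -0.35 for Hsd17b12 to 0.62 for Hsd11b1, with 4 positive and 4 negative and a median of 0.03. Hsd11b1 alone had an unadjusted p under 0.05, where 8.02% of all genes had one. At an FDR of 0.05 0 of the 8 passed, where 0.456% of all genes did, and 0 of the 8 were free of overlap, where 14% of all genes were. The median absolute value, 0.18, was that of all genes. This comparison shares its 3 model libraries with the one above.

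For HME against control rats, 0 of the 8 passed in edgeR, where 1.48% of 12633 genes passed. Hsd11b1 alone had an unadjusted p under 0.05, where 24.3% of all genes had one. Hsd17b2 was past both thresholds there, which is no evidence on a gene chosen for these levels. DESeq2 added Hsd11b1. The log2 fold changes of the 8 ran from -0.45 for Hsd17b6 to 1.11 for Hsd11b1, with a median of 0.08. This comparison shares its control and HME libraries with the other two.

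**Figure D2:**
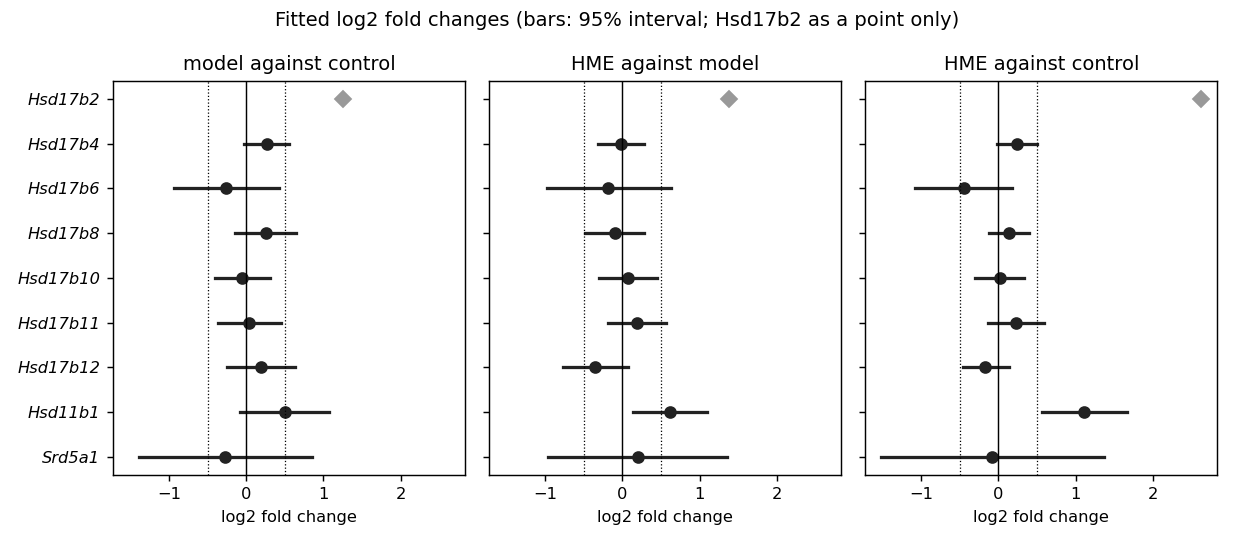
Fitted log2 fold change of each gene (horizontal axis) in the 3 comparisons, from edgeR on the 6 libraries of each pair of groups. Circles are the 8 related enzymes with their 95% intervals, the grey diamond is Hsd17b2 without an interval, and dotted lines mark -0.5 and 0.5. The interval of Hsd11b1 lies above 0 in both comparisons of the HME group, and those of the other 7 enzymes span 0 in every comparison.

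Hsd11b1 (ENSRNOG00000005861) encodes the reductase that regenerates corticosterone from its inactive keto form in the endoplasmic reticulum. It was at 295, 527 and 495 CPM in the control rats. In the model rats it was at 760, 511 and 585 CPM, and in the HME rats at 972, 755 and 1120 CPM. All 3 HME rats were above all 3 control rats, in a comparison where the groups did not overlap in 30.2% of all genes tested. The lowest HME rat, at 755 CPM, lay just under the highest model rat, and with library size alone as the scaling the HME and model rats did not overlap.

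HME rats differed from controls in Hsd11b1 by a log2 fold change of 1.11 (standard error 0.24, 95% interval 0.56 to 1.66, FDR 0.0328 from edgeR), which is below 0.05 and above 0.01. With 0.05 as the limit, 6.36% of all genes passed. It stayed between 0.89 and 1.26 with each rat left out, and its FDR then ran from 0.0336 to 0.103. By DESeq2 the FDR was 6.09e-05, and over all alternatives it ran from 6.09e-05 to 0.103. In the contrast with model rats its log2 fold change was 0.62 (FDR 0.473 from edgeR), and between the model and control groups it was 0.50 (FDR 0.454 from edgeR). H6pd, which supplies the NADPH that this reductase uses, was picked out after its values were seen. It averaged 131 ± 0.615 CPM in control, 181 ± 16.7 in model and 175 ± 24.3 in HME rats, with every model and HME rat above every control rat. Its log2 fold changes against control were 0.46 (FDR 0.165 from edgeR) and 0.41 (FDR 0.0812). The groups did not overlap in 21.1% of all genes for model against control and in 30.2% for HME against control. Hsd11b2, which catalyses the opposite reaction mainly in kidney, was low, averaging 4.97 ± 1.12 CPM in control and 1.79 ± 0.565 in HME rats (log2 fold change -1.47, FDR 0.0206 from edgeR).

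Srd5a1 (ENSRNOG00000017601), the 5α-reductase that makes dihydrotestosterone and also begins the clearance of glucocorticoids, varied widely within every group. It was at 229, 239 and 88.5 CPM in the control rats, 115, 84.7 and 261 CPM in the model rats, and 84.1, 169 and 274 CPM in the HME rats. Each group held rats on both sides of the range, and the highest rat of a group was at 2.71 to 3.25 times the lowest. Its coefficients of variation, 45.4%, 61.5% and 54.0%, exceeded those of at least 92.7% of all genes in each group. Against control rats the log2 fold change of the HME rats was -0.08, with a 95% interval from -1.52 to 1.37, so that differences of more than 2-fold in either direction remain within the error.

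Hsd17b4 (ENSRNOG00000015840), the bifunctional protein of peroxisomal fatty acid oxidation that also oxidises estradiol, varied little within groups. It was at 401, 440 and 444 CPM in the control rats, 507, 521 and 518 CPM in the model rats, and 548, 493 and 481 CPM in the HME rats. Every model and HME rat was above every control rat. In the comparison of the model with the control group 21.1% of all genes tested did not overlap, and in that of the HME with the control group 30.2%. The separation was lost in both comparisons with library size alone, a scaling that moves the median log2 fold change of all genes by -0.14 in either. Against control, edgeR gave a log2 fold change of 0.27 for model rats (FDR 0.432) and 0.24 for HME rats (FDR 0.239). The coefficient of variation in the model group was 1.38%, and only 0.426% of genes had a smaller one.

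Hsd17b6 and Hsd17b11 also oxidise steroids. Hsd17b6 (ENSRNOG00000002597), which acts on androstanediols and is closely related to retinol dehydrogenases, so that reads of near copies may be split, was at 157, 109 and 140 CPM in the control rats. It was at 156, 117 and 65.9 CPM in the model rats and at 125, 112 and 61.5 CPM in the HME rats. The groups overlapped, with 1 low rat in each fructose group, and the log2 fold change of the HME group against control was -0.45 (95% interval -1.08 to 0.18, FDR 0.351 from edgeR). It was -0.18 without HME replicate 3, the lowest rat. Hsd17b11 (ENSRNOG00000002210), a protein of lipid droplets, ran from 285 to 390 CPM in the control rats, 330 to 414 CPM in the model rats and 366 to 480 CPM in the HME rats. Its log2 fold change between the HME and control groups was 0.23 (FDR 0.427 from edgeR).

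The remaining members are known mainly from mitochondria and fatty acid synthesis. Hsd17b8 (ENSRNOG00000000466), a subunit of the ketoacyl reductase of mitochondrial fatty acid synthesis, ran from 22.1 to 34.7 CPM over the 9 rats. Cbr4, its partner subunit, had a log2 fold change of 0.14 between the HME and control groups, as did Hsd17b8. Hsd17b10 (ENSRNOG00000003049), which acts in isoleucine breakdown and in mitochondrial RNase P, ran from 75.1 to 102 CPM, and its 3 log2 fold changes lay between -0.05 and 0.07. The 95% interval for the HME group against control, -0.30 to 0.33, bounds the difference that these rats can show.

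Hsd17b12 (ENSRNOG00000009630), the ketoacyl-CoA reductase of fatty acid elongation, was at 104, 96.1 and 116 CPM in the HME rats and at 170, 121 and 113 CPM in the model rats. The log2 fold change was -0.35 (95% interval -0.77 to 0.07, FDR 0.719 from edgeR). Without model replicate 1, its highest rat, the value was -0.14. With library size alone the HME rats, at 97.1 to 106 CPM, were all below the model and control rats, and on the TMM scale they overlapped both.

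Likeness to Hsd17b2 differed from member to member. Over the 9 libraries, Pearson's r between the log2 level of Hsd17b2 and that of a member was 0.65 for Hsd17b4 and Hsd11b1, 0.37 for Hsd17b11, 0.03 for Hsd17b8 and between -0.50 and -0.12 for the other 4. These values describe 9 libraries that share their groups and scaling. Of the 4079 genes ranked in the next paragraph, 9.81% had an r at least as high as that of Hsd17b4. The share was 9.95% for Hsd11b1 and 30% for Hsd17b11. Hsd17b4 and Hsd17b11 fall short of the log2 range required of the ranked genes, so they are set against genes that vary more. Without Hsd17b2, the summed level of the 8 genes was 1590 to 1930 CPM in the control rats, 1800 to 2250 CPM in the model rats and 2120 to 2540 CPM in the HME rats. Hsd11b1 carried this order. With Hsd11b1 also left out, the sums were 1290 to 1400, 1290 to 1490 and 1360 to 1460 CPM, and all groups overlapped.

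Among 4079 genes with a mean of at least 1 CPM and a range of at least 1 on the log2 scale, those most like Hsd17b2 were Crebrf, Nr1d1, Klf9, Sgms2 and Sult1c2, with r from 0.947 to 0.952 over the 9 libraries. Nr1d1 encodes a repressor of the circadian clock, Klf9 a zinc finger transcription factor, Crebrf a regulator of the CREB3 family, Sgms2 a sphingomyelin synthase and Sult1c2 a sulfotransferase. Nr1d1 was at 8.54, 2.03 and 5.66 CPM in the control rats, 13.2, 81.7 and 27.3 CPM in the model rats and 105, 101 and 83.8 CPM in the HME rats. Klf9 was at 10.3, 33.7 and 21.4 CPM in the model rats and between 43.8 and 62.1 CPM in the HME rats. In each of the 5 genes model replicate 2 was the highest model rat, as it was for Hsd17b2. The genes were ranked by r over these same libraries, so this likeness is largely how they were chosen. The time of day at which the livers were taken is not given in the sources used here, and its part in the result was not tested.

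**Figure D3:**
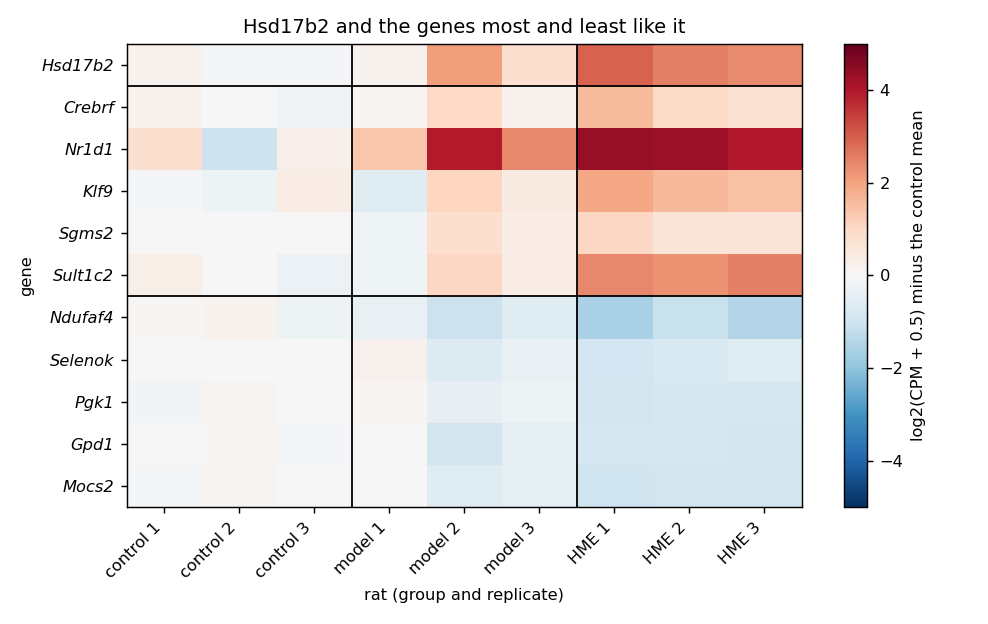
Level of Hsd17b2 (top row), the 5 genes most like it (next 5 rows) and the 5 genes most unlike it (bottom 5 rows) in each rat, as log2(CPM + 0.5) minus the mean of the 3 control rats. The genes were ranked by Pearson's r over these 9 libraries, so the shared pattern is how they were chosen. Model replicate 2 lies on the side of the HME rats in every row.

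The genes that ran most against Hsd17b2 were Mocs2, Gpd1, Pgk1, Selenok and Ndufaf4, with r from -0.972 to -0.957. Gpd1, the glycerol-3-phosphate dehydrogenase of the cytosol, was between 1130 and 1260 CPM in the control rats, at 1170, 629 and 877 CPM in the model rats and between 629 and 648 CPM in the HME rats. Pgk1, a glycolytic kinase, was between 248 and 306 CPM in the control rats, at 292, 209 and 233 CPM in the model rats and between 146 and 158 CPM in the HME rats. In both, model replicate 2 was the lowest model rat, which follows largely from their choice by r over these libraries.

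The other genes of the pathway were read from 9 lists of 97 symbols, of which 73 were in the count table. In the comparison of the model with the control group, 65 were tested and edgeR called 0, where it called 0.0801% of all genes. At an unadjusted p under 0.05 stood 23 of them, where 13.2% of all genes did, and DESeq2 called 4, where it called 2.05% of all genes. In HME against model rats 64 were tested and edgeR called 0, with 12 at an unadjusted p under 0.05, and DESeq2 called 3, where the shares over all genes were 0.136%, 8.02% and 1.18%. In HME against control rats edgeR called 3 of 65 (4.62%), where 1.48% of all genes were called. These were Cyp3a23/3a1 and Ugt2b35, which were higher in the HME group, and Cyp2c22, which was lower. At an unadjusted p under 0.05 stood 21, where 24.3% of all genes did, and DESeq2 called 11, where it called 6.09% of all genes.

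Among the hydroxylases, Cyp3a23/3a1, an inducible enzyme that hydroxylates testosterone, rose from a mean of 613 ± 14.5 CPM in control rats to 1680 ± 60 in HME rats (log2 fold change 1.45, FDR 0.000325 from edgeR), and was at 695 ± 286 CPM in the model group. Cyp2c22 fell from 1510 ± 347 to 680 ± 94.1 CPM (log2 fold change -1.16, FDR 0.00973 from edgeR). Both belong to families of near-identical copies whose reads may be split. The male-specific testosterone hydroxylase Cyp2c11, picked out after its values were seen, averaged 2780 ± 634 CPM in control and 1630 ± 71.6 in HME rats (FDR 0.0304 from edgeR). In the same list Cyp2c13 and Cyp3a18 were higher in the HME group than in controls (log2 fold change 0.68 and 1.12, FDR 0.2 and 0.0438 from edgeR). Cyp7b1, which hydroxylates oxysterols and dehydroepiandrosterone, was between 11.9 and 47.1 CPM in the control rats and between 2.57 and 4.12 CPM in the model rats, a log2 fold change of -3.05 with an FDR of 0.0597. Cyp3a62 averaged 3.45 ± 1.74 CPM in control, 8.47 ± 4.76 in model and 16 ± 4.2 in HME rats, and its log2 fold change between the HME and control groups, 2.23, had an FDR of 0.0147. Of 14 hydroxylases tested, 8 had a positive and 6 a negative log2 fold change between the HME and control groups. Of these, 1 passed in each direction, and passing genes made up 1.48% of all genes tested. The unadjusted p fell below 0.05 for 9 of the 14, against 24.3% of all genes. For 9 of the 14 the HME and control rats did not overlap, against 30.2% of all genes.

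Among the conjugating enzymes, Ugt2b35, a glucuronosyltransferase, rose from a mean of 625 ± 21.9 CPM in control rats to 1030 ± 64.4 in HME rats (log2 fold change 0.71, FDR 0.00973 from edgeR). All 6 glucuronidation genes tested had a positive log2 fold change in that comparison, with a median of 0.47. Only these 6 of the 13 listed symbols were in the count table, so they do not cover the list. Of the 6, 1 passed, where 1.48% of all genes did, and 3 had an unadjusted p under 0.05, where 24.3% did. Ugt2b17 averaged 341 ± 48.6 CPM in control, 256 ± 32.8 in model and 519 ± 87.2 in HME rats, and its log2 fold change between the HME and model groups, 1.03, had an FDR of 0.0677. Ugt2b37 averaged 2960 ± 522 CPM in control and 4080 ± 367 in model rats (FDR 0.326 from edgeR), and Ugt2a3 averaged 72.8 ± 22 and 113 ± 30.5 CPM (FDR 0.338). Sult1e1, the estrogen sulfotransferase, averaged 1890 ± 226 CPM in control, 1080 ± 431 in model and 1590 ± 284 in HME rats, and neither difference from the model group passed (FDR 0.313 and 0.751 from edgeR). Sult2b1, which couples cholesterol and related sterols to sulfate, averaged 6.81 ± 1.71 CPM in model and 1.74 ± 0.996 in HME rats (FDR 0.12). Of the 7 sulfation genes tested, edgeR called 0 in each comparison, with 4, 1 and 2 at an unadjusted p under 0.05 (model against control, HME against model, HME against control), where the shares over all genes were 13.2%, 8.02% and 24.3%. DESeq2 called Sult1b1 in both comparisons with control and Sult2b1 in the other. Over all genes it called 2.05% in model against control, 1.18% in HME against model and 6.09% in HME against control.

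**Figure D4:**
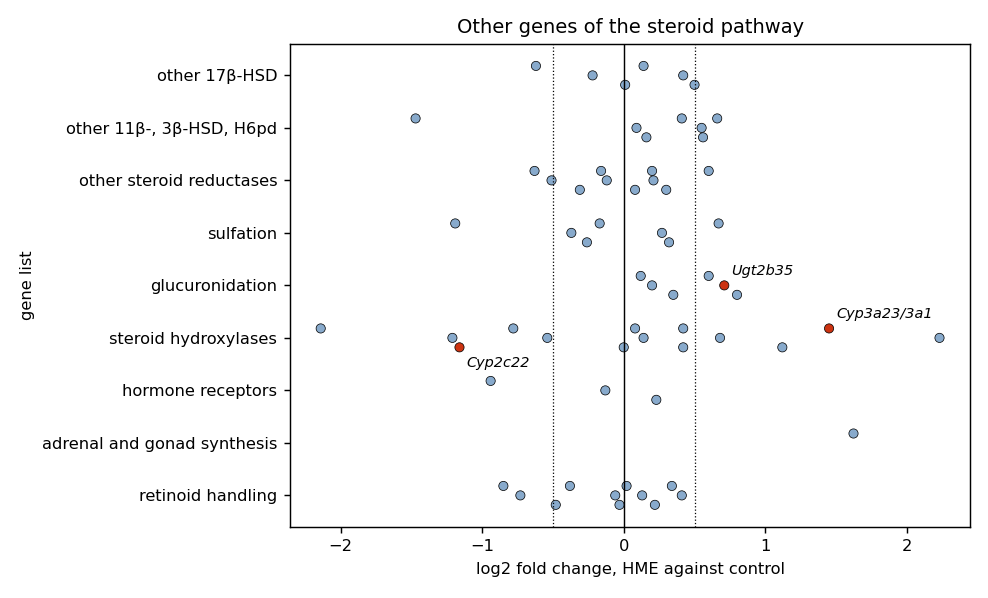
Log2 fold change between the HME and control groups (horizontal axis) of each tested gene in the 9 lists of the steroid pathway, with dotted lines at -0.5 and 0.5. Red points passed both thresholds in edgeR (Cyp3a23/3a1, Ugt2b35 and Cyp2c22), and blue points did not.

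Among the other dehydrogenases and reductases, edgeR called 0 genes between the HME and control groups. At an unadjusted p under 0.05 stood 0 of 6 further 17β-hydroxysteroid dehydrogenases, 4 of 7 genes of the 11β and 3β families with their cofactor supply, and 1 of 10 reductases, where 24.3% of all genes did. DESeq2 called Hsd11b2 and Akr1c12, where it called 6.09% of all genes. Hsd17b7, which also acts in cholesterol synthesis, averaged 47.4 ± 4.44 CPM in control, 25 ± 3.18 in model and 40.7 ± 12.3 in HME rats, with an FDR of 0.0345 for the model group against control. Hsd17b13, a protein of lipid droplets, averaged 216 ± 31.4 CPM in control, 333 ± 58.6 in model and 218 ± 28.4 in HME rats. Every model rat was above every control and HME rat, and neither difference passed (log2 fold change 0.62, FDR 0.182 against control, and -0.61, FDR 0.373 for HME against model, both from edgeR). The groups did not overlap in 21.1% of all genes for model against control and in 14% for HME against model. Hsd3b7, an enzyme of bile acid synthesis, averaged 126 ± 16 CPM in control and 207 ± 8.02 in model rats, with every model rat above every control rat (log2 fold change 0.71, FDR 0.0836 from edgeR). Akr1c3 averaged 13.3 ± 1.09 CPM in control, 7.37 ± 1.49 in model and 10.8 ± 1.8 in HME rats. Neither of its differences from the model group passed (FDR 0.117 and 0.575 from edgeR). Hsd17b14 was at 6.55 ± 2.22 and 10.2 ± 2.21 CPM in the control and model groups, and those rats overlapped. The remaining genes with large differences in their list were Hsd3b5 (log2 fold change 0.47, FDR 0.437), Hsdl2 (-0.31, FDR 0.785) and Akr1c19 (-0.35, FDR 0.888) for HME against model rats and Akr1c1 (-0.73, FDR 0.548) for model against control rats, none of which passed in edgeR.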

How the data were processed

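Liver RNA of 9 rats was sequenced after poly(A) selection. Alignment was with HISAT2, and HTSeq 0.6.1 assigned reads to exons ignoring strand, and the authors deposited the resulting raw counts per gene. The submitters' processing notes name the build Rnor_6.0. Genes overlapping on opposite strands may share reads. The table of assembled transcripts was left out because its unit is not stated. No rat sequence, gene position or transcript length was analysed here.

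Fits used edgeR 4.0.16 under R 4.3.3, separately for each pair of groups (6 libraries), after filterByExpr and TMM, by the robust two-sided quasi-likelihood test and Benjamini-Hochberg adjustment (FDR) over all genes tested. Calls required a log2 fold change beyond 0.5 in size with an FDR no higher than 0.01. Standard errors are the log2 fold change divided by the root of its F value. DESeq2 1.42.0 was an alternative. With 3 rats against 3, the smallest p of an exact permutation test is 0.1. Replicates differed by more than counting error, with a chi-square per gene of 18.2 to 65.9.

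The genes named are the 9 members, genes from the 9 pathway lists that were called or were among the 2 largest differences of their list (model against control, HME against model), and the 5 genes most and least like Hsd17b2. H6pd, Cbr4, Cyp2c11, Cyp2c13, Cyp3a18, Akr1c12 and Sult1b1 were chosen after their values were seen. The members and lists were chosen with earlier results of these data known. Among the listed symbols, 24 of 97 were not matched in the count table, Nr3c1 among them. Some single genes are not reported here.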

Additional observations from a re-analysis of the deposited data

How the results depend on the processing

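Scaling (library size alone, or the size factors of DESeq2), the low-count filter, the test (DESeq2), the libraries fitted together (all 9), a replicate block, the FDR limit (0.05) and the omission of each rat were varied. The number of genes called moved most. Between the model and control groups it was 10, and it was 75 at an FDR of 0.05, 71 with no filter, 256 with DESeq2, 25 with all 9 libraries and 0 with the replicate block, and it ran from 0 to 10 with a rat left out. Between the HME and model groups it was 17, and 57, 38 and 147 under the first 3 of these, 11 with library size alone, 7 with the block and 2 to 12 with a rat left out. Between the HME and control groups it was 187, and 804, 489, 769, 113 and 104 in the order of the first comparison, and 86 to 132 with a rat left out. Of the 9 members 1 was called there, where 1.48% of all genes were. It was Hsd17b2, and its call is no evidence on a gene chosen for these levels. Hsd11b1 was added at an FDR of 0.05 or with DESeq2, where 6.36% and 6.09% of all genes passed. With all 9 libraries 0 members were called. In the other 2 comparisons 0 were called under every alternative.

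The log2 fold change of Hsd17b2 between the model and control groups ran from 0.53 to 1.59 with a rat left out. With library size alone Hsd17b11 turned to -0.10 between the model and control groups, and Hsd17b8 and Hsd17b10 to 0 and -0.13 between the HME and control groups. With a rat left out, the ranges that crossed 0 between the model and control groups were -0.09 to 0.13 for Hsd17b11, -0.03 to 0.31 for Hsd17b12, -0.18 to 0.06 for Hsd17b10, -0.89 to 0.02 for Srd5a1 and -0.58 to 0.02 for Hsd17b6. Between the HME and model groups they were -0.08 to 0.02 for Hsd17b4, -0.45 to 0.13 for Hsd17b6, -0.04 to 0.19 for Hsd17b10, -0.18 to 0.07 for Hsd17b8 and -0.27 to 0.83 for Srd5a1, and between the HME and control groups -0.54 to 0.26 for Srd5a1 and -0.08 to 0.13 for Hsd17b10. The causes were not tested.

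Replicate numbers did not pair the rats: same-numbered rats had correlations of deviations between -0.25 and -0.01, and in 0 of 18 checks did a rat correlate best with its own number. With 3 rats a group, the spread between rats and not counting error limits these values.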

Other observations

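The receptors for these steroids and the enzymes that make them in other organs were read as well. Esr1, the estrogen receptor of the liver, averaged 41.6 ± 12 CPM in control, 25.5 ± 6.46 in model and 21.8 ± 9.49 in HME rats. Every model and HME rat was below every control rat, and the FDR from edgeR was 0.296 and 0.222. The groups did not overlap in 21.1% of all genes for model against control and in 30.2% for HME against control. Of the 3 receptors tested, edgeR and DESeq2 called 0 in each comparison. Over all genes edgeR called 0.0801%, 0.136% and 1.48% and DESeq2 2.05%, 1.18% and 6.09%, in the order given below. Esr1 in the model group against control was the 1 value at an unadjusted p under 0.05, where 13.2% of all genes were. Of the 6 adrenal and gonadal synthesis enzymes in the count table only Cyp17a1 passed the filter on low counts. It averaged 3.92 ± 1.21 CPM in control, 9.8 ± 4.59 in model and 12.2 ± 6.16 in HME rats (FDR 0.225 and 0.0765 from edgeR against control). Among 11 genes of retinoid handling edgeR and DESeq2 called 0 in each comparison, with 2, 1 and 1 at an unadjusted p under 0.05 (model against control, HME against model, HME against control), where 13.2%, 8.02% and 24.3% of all genes were, and their median log2 fold change between the HME and control groups was -0.03. Further log2 fold changes of retinoid and receptor genes, none of which passed, were -1.48 for Cyp26a1 and -0.87 for Cyp26b1 in model against control rats (FDR 0.374 and 0.602 from edgeR), and -0.68 for Rarb and 0.46 for Nr3c2 in HME against model rats (FDR 0.619 and 0.888).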
